A study of Mus musculus with 15 samples.

Results

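The 9 circadian clock genes *Cry1*, *Cry2*, *Per1*, *Per2*, *Per3*, *Clock*, *Arntl*, *Csnk1e* and *Csnk1d* were followed through ribosome profiling of mouse embryonic stem cells (mESCs). They are 9 of the 21727 transcripts in the count table, each represented by 1 transcript, and 8 of them passed the filter on low counts (more than 2 CPM, the count scaled to library size, in 14 or more of the 15 libraries), as did 10085 transcripts in all. *Per2* did not pass. The genes were selected from the readout, on their levels in these cells and on their ratio of immunoprecipitated over total fragments in each line, with *Cry1* at the head because its ratio differed between the lines. Levels and ratios of the 9 genes are therefore given as a description, without a test, and so are their differences in total RPFs between lines, which rest on the same libraries. Counts of calls are given beside those of all transcripts.

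The cells were E14Tg2a.4 mESCs grown without feeders on gelatin in serum and LIF. In the *Rps27-FLAG* line (genotype eS27-FLAG) both alleles of *Rps27* carried a C-terminal 3xFLAG tag at the endogenous locus, and in the *Rps27l-FLAG* line (eS27L-FLAG) both alleles of *Rps27l* did. *Rps27* and *Rps27l* are paralogs that encode forms of the ribosomal protein eS27 of the small subunit, so that the tag marks ribosomes with one or the other form. WT cells were untagged and passage-matched, and each line was represented by 3 clones, each grown from a single cell. Where a fit holds no term for the clone or replicate number, its p-values are set against the spread between clones. Where it holds such a term, they are set against what that term leaves over. The spread is estimated in part from the other transcripts. All cells received cycloheximide before lysis. Each of the 9 clones gave a library of ribosome-protected fragments (RPFs) from its whole ribosome pool (total RPFs), and each of the 6 tagged clones gave a further one from ribosomes pulled down with an antibody to FLAG (IP RPFs), which makes 15 libraries in 5 conditions of 3. The libraries held between 3972152 and 8064166 counts, and the 9 clock genes together took between 0.0249% and 0.0340% of them. All 10 pluripotency markers examined (*Pou5f1*, *Nanog* and *Zfp42* among them) were above the filter. Of the markers of other cell types, *Eomes* (mesoderm, 32 to 216 counts) and *Thy1* (fibroblasts, 23 to 171 counts) passed it as well. Markers of primitive endoderm, mesoderm, neural cells and fibroblasts summed to at most 33.2 CPM per list in every library, against at least 3871 CPM for the pluripotency list. No label used here names a synchronization of the cells or a time of day.

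The clock is a feedback loop of transcription and translation. CLOCK and BMAL1 (encoded by *Arntl*) form a dimer that activates *Per* and *Cry* genes, and PER and CRY proteins return to the nucleus and repress the dimer. Casein kinases 1 delta and epsilon (*Csnk1d*, *Csnk1e*) phosphorylate PER proteins and set how long they last, and CRY proteins are removed through ubiquitin ligases. Pluripotent stem cells are known to lack a running circadian oscillation, which appears as they differentiate, although they express clock genes.

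Several of these genes are paralogs, and the count table holds only reads that aligned to 1 place, so the most similar stretches of each pair are shown first. They are the windows of 28 bases, about the length of an RPF, that differ least between the coding sequences of both genes, from GENCODE M21 on GRCm38, written 5′ to 3′ on the coding strand, with the bases that differ in capitals. *Cry1* lies on chromosome 10 (85131700 to 85185064, minus strand, 13 exons) and *Cry2* on chromosome 2 (92403646 to 92434043, minus strand, 12 exons). Their closest windows lie in exon 7 of each, at chr10:85146452-85146479 and chr2:92413744-92413771, and differ at 1 base.
Cry1: gacaggcttcccGtggattgacgccatc
Cry2: gacaggcttcccTtggattgacgccatc
The closest windows of *Csnk1d* (chr11:120973086-120973113, minus strand, exon 4) and *Csnk1e* (chr15:79426379-79426406, minus strand, exon 5) also differ at 1 base.
Csnk1d: aagaaaggcaacctggtCtacatcattg
Csnk1e: aagaaaggcaacctggtGtacatcattg
Those of *Per1* (chr11:69104165-69104192, plus strand, exon 15) and *Per2* (chr1:91430988-91431015, minus strand, exon 15) differ at 1 base as well, while the closest windows of *Per2* and *Per3* differ at 2 and those of *Per1* and *Per3* at 3.
Per1: tcctaccagcagatcaActgcctggaca
Per2: tcctaccagcagatcaGctgcctggaca
No window of 28 bases was shared by a pair. The longest identical run was 21 bases between *Cry1* and *Cry2*, 23 between *Csnk1d* and *Csnk1e* and 20 between *Per1* and *Per2*. Of the windows of *Cry1*, 5.47% came within 3 differences of a *Cry2* window, against 19.8% of those of *Csnk1d* for *Csnk1e* and 1.07% of those of *Per1* for *Per2*. In 7 of the 9 coding sequences no window occurred in a transcript of any other gene. The exceptions were *Clock*, with 9 of 2538 windows, and *Csnk1e*, with 4 of 1221 windows, which are also found in *Csnk1g2*. A fragment of full length from these genes could thus be assigned to one paralog by its sequence, apart from these few windows and from sequencing errors. This rests on exact matches. Whether reads within a few differences of a paralog were left out as not unique was not tested.

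Levels spanned 211-fold from the highest to the lowest gene. They are given as CPM per kb of counted coding sequence (kb without the first 15 and last 5 codons), scaled by TMM, as mean ± SD over the 9 total RPF libraries. In a bulk culture, fewer cells that translate a gene and fewer fragments per cell cannot be told apart. The kinase *Csnk1d* was highest at 89.1 ± 5.68 CPM per kb, above 78.7% of all tested transcripts, and *Csnk1e* followed at 50.9 ± 9.74. *Cry1* stood at 32.7 ± 4.24 CPM per kb, above 56.4% of tested transcripts, and its range over libraries (27.9 to 39.7) overlapped that of *Csnk1e* (37.8 to 63.2). These 3 genes lay above the median tested transcript, at 25.6 CPM per kb.

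The remaining genes lay below that median. *Cry2* was at 13.6 ± 1.29 CPM per kb and *Arntl* at 11.4 ± 1.61, and their ranges overlapped. *Per1* was at 6.31 ± 1.13 CPM per kb, *Clock* at 2.41 ± 0.564 and *Per3* at 1.98 ± 0.489, the last pair with overlapping ranges. *Per2* was lowest at 0.422 ± 0.170 CPM per kb and rested on 4 to 20 counts per library. Paralogs thus stood far apart. *Cry1* was above *Cry2* in each of the 9 total libraries, by 1.83 to 2.95-fold per kb. *Csnk1d* was above *Csnk1e* in each, by 1.43 to 2.26-fold, and *Per1* was above *Per2* by 7.67 to 42.1-fold. The activator pair was also uneven, as the mean level of *Arntl* was 4.72 times that of *Clock*, with which its protein pairs.

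**Figure D1:**
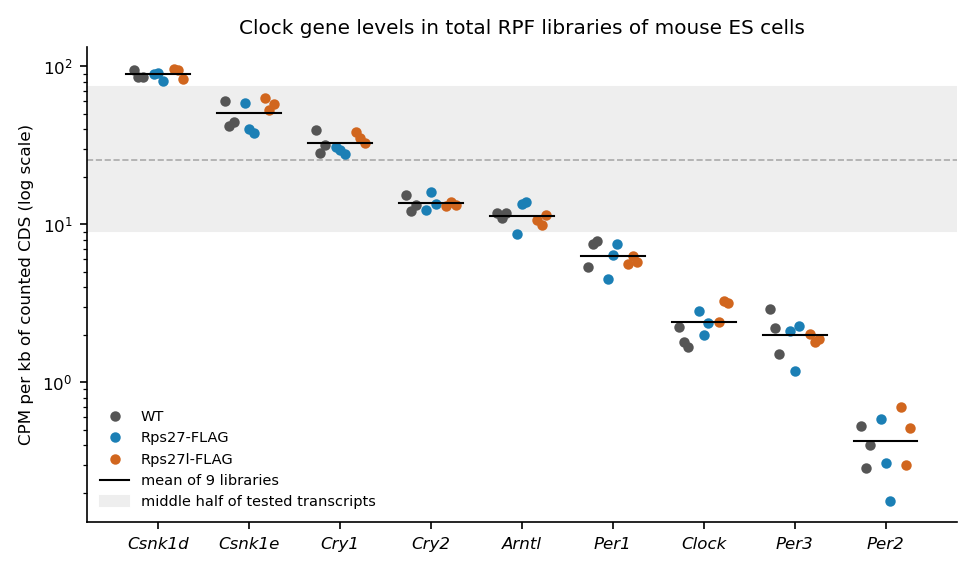
Level of each clock gene in the 9 total RPF libraries, as CPM per kb of counted coding sequence on a log axis, 1 point per library, coloured by line, with a black line at the mean. The grey band spans the middle 50% of tested transcripts (9.11 to 74.0 CPM per kb) and the dashed line their median, and *Per1*, *Clock*, *Per3* and *Per2* lie below the band.

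The 3 lines were then compared in total RPFs. Of the 8 tested clock genes, 0 passed an adjusted p of 0.05 (edgeR's quasi-likelihood F-test, Benjamini-Hochberg adjustment over 10085 transcripts) in any of the 3 pairs of lines, where 0% of all tested transcripts did. At an unadjusted p under 0.05 there was 1 clock gene, *Clock* in *Rps27l-FLAG* against WT, and voom with limma and DESeq2 also called 0. In this comparison *Clock*, the DNA-binding partner of BMAL1, was at 6.0, 8.1 and 7.9 CPM in *Rps27l-FLAG* and at 5.6, 4.5 and 4.2 CPM in WT. The groups did not overlap, at a log2 fold change of 0.62 ± 0.21 (SE, n = 3 clones per line). It was the 1 clock gene of 8 without overlap in that comparison, in which 9.65% of all tested transcripts had none. None of the 8 was free of overlap between *Rps27-FLAG* and WT, against 8.52% of all.

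Total RPFs of *Cry1* were 67.6, 61.9 and 57.4 CPM in *Rps27l-FLAG*, 54.7, 51.7 and 49.0 CPM in *Rps27-FLAG*, and 69.8, 50.1 and 55.7 CPM in WT. The tagged lines did not overlap each other. The range of the WT clones overlapped both, and only *Rps27-FLAG* replicate 3 (49.0 CPM) lay outside it. *Cry1* was the 1 clock gene of 8 without overlap between the tagged lines (11.5% of all tested transcripts), with a log2 fold change of 0.27 ± 0.12 in *Rps27l-FLAG* against *Rps27-FLAG* (SE). These total libraries also enter the ratios that chose *Cry1*. *Csnk1e* had the largest difference of the remaining genes in that comparison, 0.34 ± 0.18, and *Csnk1d* differed by 0.08 ± 0.08. With the replicate number as a block (the fragments of all libraries of a replicate number were pooled for rRNA depletion), the number of clock genes called was still 0, where 0.00992%, 1.43% and 1.36% of tested transcripts were called for *Rps27-FLAG* against WT, *Rps27l-FLAG* against WT and *Rps27l-FLAG* against *Rps27-FLAG*.

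**Figure D2:**
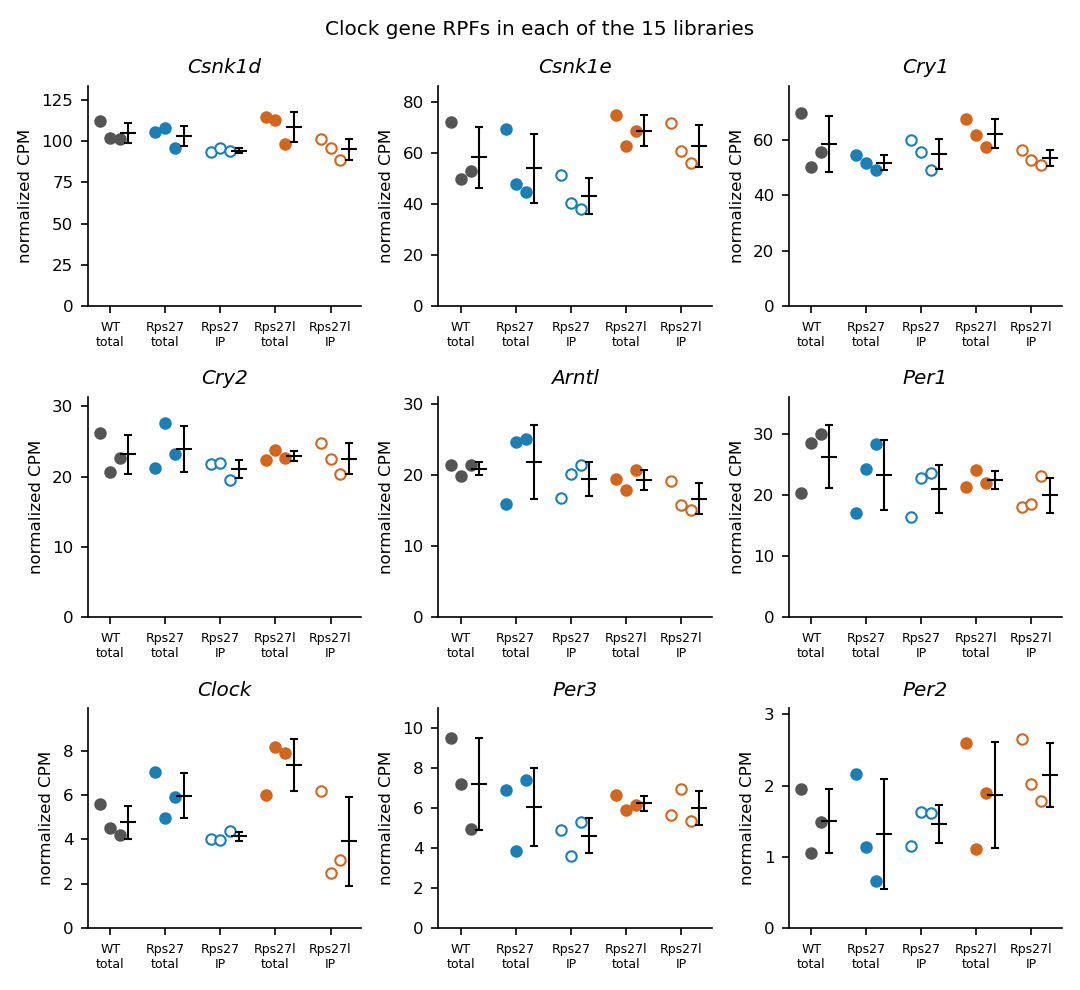
Normalized CPM of the 9 clock genes in all 15 libraries, 1 point per library (filled, total RPFs; open, IP RPFs; grey, WT; blue, *Rps27-FLAG*; orange, *Rps27l-FLAG*), with mean and SD over 3 clones in black; each panel has its own axis from 0. The IP values of *Cry1* are alike in both tagged lines (49.3 to 59.9 CPM), while its total values are higher in *Rps27l-FLAG*.

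Ribosomes with a tagged Rps27 or Rps27l were then compared with all ribosomes of the same line. The log2 ratio of IP over total RPFs was formed for each clone, with 0.5 counts added. *Cry1* stood at 0.13, 0.11 and 0.01 in the 3 *Rps27-FLAG* clones and at -0.26, -0.23 and -0.17 in the 3 *Rps27l-FLAG* clones. All 3 clones of the first line were above 0, all 3 of the second below, and the lines did not overlap. Beneath these ratios, IP RPFs of *Cry1* were 59.9, 55.6 and 49.3 CPM in *Rps27-FLAG* and 56.5, 52.9 and 51.1 CPM in *Rps27l-FLAG*. The IP levels of the lines overlapped, at means of 54.9 ± 5.36 and 53.5 ± 2.72 CPM, while the means of the total RPFs were 51.8 ± 2.82 and 62.3 ± 5.10 CPM (SD, n = 3).

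*Cry2*, the paralog of *Cry1* and like it a repressor of the CLOCK:BMAL1 dimer, did not share this order. Its log2 ratios were 0.04, -0.33 and -0.24 in *Rps27-FLAG* and 0.15, -0.08 and -0.14 in *Rps27l-FLAG*, and the lines overlapped. The *Per* genes overlapped too. Those of *Per1* averaged -0.13 ± 0.11 and -0.17 ± 0.23, and those of *Per3* -0.34 ± 0.23 and -0.05 ± 0.26. *Per2* gave ratios from -0.86 to 1.22 on 4 to 20 counts per library, too few to order the clones.

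Of the activators, *Arntl* averaged -0.14 ± 0.20 in *Rps27-FLAG* and -0.22 ± 0.22 in *Rps27l-FLAG*. *Clock* had the lowest mean ratio of the 9 genes in each line, though not the lowest value in every clone. Its ratios were -0.78, -0.31 and -0.42 in *Rps27-FLAG* and 0.05, -1.67 and -1.32 in *Rps27l-FLAG*. The last pair of these values rests on 11 and 12 counts in the IP library. Of the kinases, *Csnk1d* averaged -0.13 ± 0.08 in *Rps27-FLAG* and -0.19 ± 0.04 in *Rps27l-FLAG*, below 0 in 6 of 6 clones, and *Csnk1e* averaged -0.31 ± 0.11 and -0.13 ± 0.14, also below 0 in 6 of 6.

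**Figure D3:**
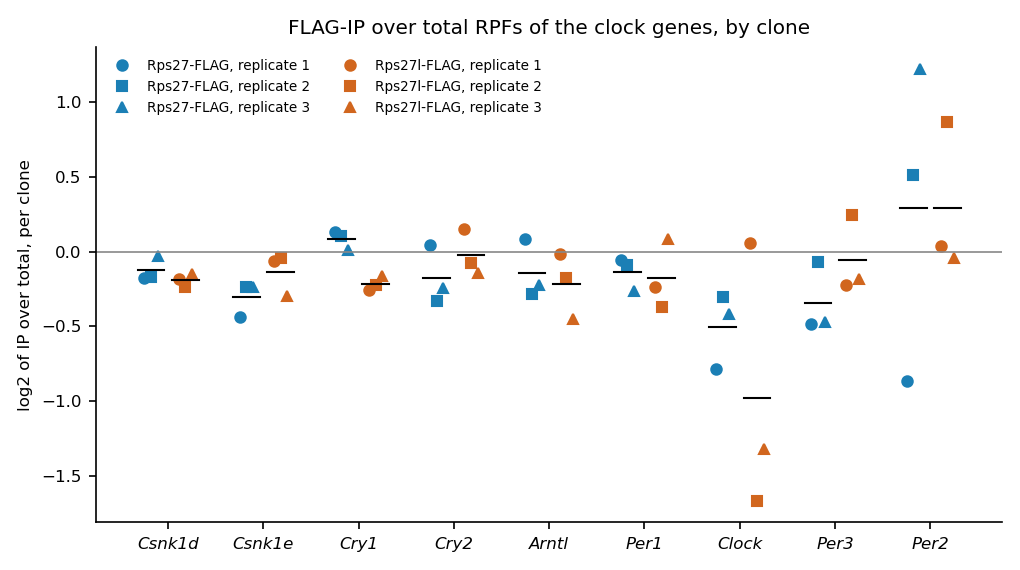
Log2 ratio of IP over total RPFs of each clock gene (y axis) in each tagged clone, coloured by line and with a symbol for each replicate number, with a black line at the mean of 3 clones. *Cry1* is the 1 tested gene whose clones separate by line, *Clock* reaches the lowest values and the wide spread of *Per2* goes with its 4 to 20 counts.

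In the fits of IP against total RPFs, 7 of the 8 tested clock genes had a log2 fold change below 0 in *Rps27-FLAG* (median -0.17, all 10085 transcripts -0.01), *Cry1* (0.09) being the exception, and 8 of 8 were below 0 in *Rps27l-FLAG* (median -0.18, all transcripts -0.03). Of all transcripts, 51.7% and 56.3% were below 0 in *Rps27-FLAG* and *Rps27l-FLAG*. With the fraction as the only term, 0 of 8 clock genes were called in either line. The background was 5.34% of tested transcripts called lower and 0.327% higher in *Rps27-FLAG* IP, and 2.27% lower and 0.833% higher in *Rps27l-FLAG* IP. Unadjusted, 1 and 2 genes had a p under 0.05, and DESeq2 and voom called 0 in both. Each IP library has a total library from its own clone. With the clone as a block, *Clock*, *Csnk1e* and *Csnk1d* were called lower in *Rps27-FLAG* IP (22.9% of all transcripts lower, 18.3% higher) and *Cry1*, *Clock* and *Csnk1d* were called lower in *Rps27l-FLAG* IP (19% lower, 12% higher). Since the ratios chose the genes, nothing is read from these counts.

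The IP effect also ran with length. Over 10084 tested transcripts, Spearman's rho between the log2 fold change and the length of the coding sequence was -0.56 in *Rps27-FLAG* and -0.53 in *Rps27l-FLAG*, as a description across transcripts, which are not independent. The median tested coding sequence has 1438.5 nt, *Csnk1d* and *Csnk1e* 1245 and 1248 nt, *Cry1* 1818 nt, and *Per1*, the longest, 3873 nt. With the trend with length removed and the clone as a block, 6 of 8 clock genes remained below 0 in *Rps27-FLAG* and 5 of 8 in *Rps27l-FLAG*. Of all transcripts, 46.4% and 47.4% were below 0 in these fits. The medians of the clock genes were -0.11 and -0.10, against 0.02 and 0.01 for all transcripts. *Cry1* was then at 0.17 and -0.15, *Per1* at 0.12 and 0.02, and *Clock* at -0.40 and -0.69 in *Rps27-FLAG* and *Rps27l-FLAG*. The summed pluripotency markers also moved with the fraction, from 3871 to 4262 CPM in total RPFs to between 4512 and 4670 CPM in IP RPFs, and their part in these values was not tested.

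The ratio of IP over total RPFs was compared between both tagged lines to ask which transcripts lie on ribosomes of one paralog more than of the other. This fit on 12 libraries, with the clone as a block and calls only beyond a log2 fold change of 0.25 in either direction, is the one from which *Cry1* was selected, so its values are a description. *Cry1* had a log2 fold change of -0.32 ± 0.089 (SE) in *Rps27l-FLAG* against *Rps27-FLAG* and was the 8th by p of the 10 transcripts called lower, 0.0992% of 10084, where 47 or 0.466% were called higher. Just inside the threshold was *Adipor1* (-0.34), and just outside were *Ska1* (-0.32) and *Chmp6* (-0.57). Of all tested transcripts, 4.15% had a log2 fold change below that of *Cry1*. It was the 1 clock gene of 8 whose clones did not overlap between the lines, where 16.2% of all tested transcripts did not overlap.

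The call of *Cry1* was at the edge of the threshold. Its adjusted p was 0.0412, and without any 1 of the 6 clones it was no longer called, with an adjusted p from 0.0580 to 0.218 and a log2 fold change from -0.34 to -0.29. It was also not called without a filter on low counts (adjusted p = 0.0707) or without the clone as a block (adjusted p = 1.00), and DESeq2 gave it no adjusted p. Of all transcripts, 57 were called in the main fit, 48 without a filter, 11 by DESeq2 and 0 without the clone as a block. Without 1 clone, 46 to 64 were called. The fold changes of the remaining clock genes ran both ways. *Csnk1e* was at 0.21 ± 0.090, *Cry2* at 0.16 ± 0.14, *Per3* at 0.33 ± 0.29, *Clock* at -0.27 ± 0.32 (-0.99 without *Rps27l-FLAG* replicate 1), *Csnk1d* at -0.06 ± 0.067, *Per1* at -0.05 ± 0.15 and *Arntl* at -0.04 ± 0.16.

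**Figure D4:**
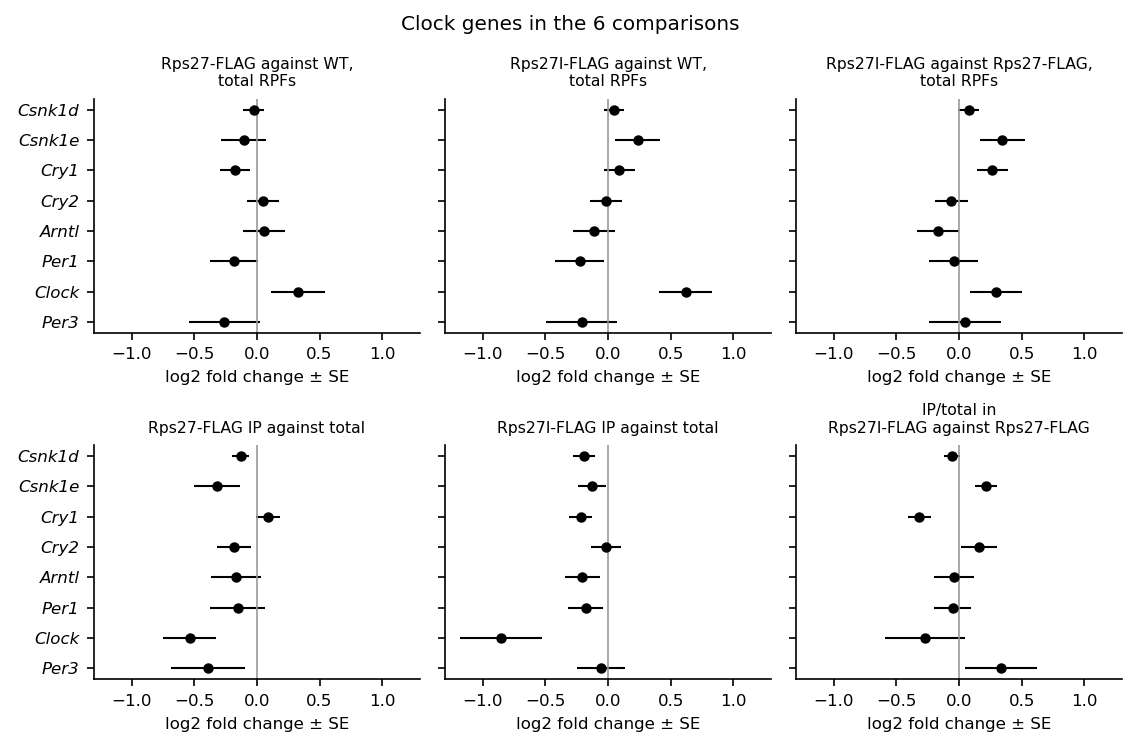
Log2 fold change with its standard error (x axis, edgeR) of the 8 tested clock genes in the 3 comparisons of total RPFs (top) and in the 2 comparisons of IP with total RPFs and their difference between lines (bottom). *Cry1* lies at 0.09 in *Rps27-FLAG* IP, at -0.22 in *Rps27l-FLAG* IP and at -0.32 in their difference, and *Clock* has the lowest values in both IP comparisons.

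Further genes of the clock pathway were taken from a list of 51, of which 41 passed the filter. Of its 17 transcription factors and output genes, 9 passed. The repressors of *Arntl* transcription were both measured, *Nr1d1* at 3.93 ± 0.894 CPM per kb and *Nr1d2* at 11.0 ± 1.18 (total RPFs, SD, n = 9). *Dbp*, an output gene driven by CLOCK:BMAL1, was at 1.84 ± 0.584 CPM per kb on 5 to 19 counts and did not pass, and *Npas2*, a paralog of *Clock*, had 0 to 3 counts per library. *Rorb*, which encodes an activator of *Arntl* transcription, had at most 1 count in any library. Of the ubiquitin ligase and deubiquitinase genes 10 of 11 passed. *Timeless*, named after a fly clock gene and known in mammals for its part in DNA replication, was at 44.8 ± 4.62 CPM per kb. *Csnk2a1*, a kinase subunit at 3 to 12 counts per library, shares 97.6% of its windows of 28 bases with the transcript *Gm10031*, so its count is uncertain. It shares 0 windows with another counted coding sequence, and whether sharing lowers its count was not tested. Further listed genes also share windows with transcripts of other genes, such as *Ppp1cc* (100%), *Rbx1* (74.8%), *Nono* (72.2%) and *Skp1a* (30.1%).

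In total RPFs, 0 of these 41 genes were called in the 3 comparisons (1 at an unadjusted p under 0.05, and 0 by DESeq2 and by voom). With the replicate number as a block, *Noct*, which encodes the rhythmic protein nocturnin, and *Sirt1*, a deacetylase that binds CLOCK, were called higher in *Rps27l-FLAG* than in *Rps27-FLAG* (log2 fold changes of 0.49 ± 0.099 and 0.31 ± 0.067, adjusted p = 0.0342 and 0.0460, edgeR). Of all tested transcripts, 1.36% were called in that fit. Without the block the adjusted p was 0.803 for both genes (edgeR). *Noct* overlapped between the tagged lines, at 266 CPM in *Rps27-FLAG* replicate 1 and 260 CPM in *Rps27l-FLAG* replicate 3. IP against total RPFs called 4 of 41 genes in each line, all lower in IP, where 5.34% of all tested transcripts were called lower and 0.327% higher in *Rps27-FLAG* and 2.27% lower and 0.833% higher in *Rps27l-FLAG*. *Timeless*, *Kdm5a* and *Ncor1* were among the 4 in both lines.

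*Timeless* was at 92.1, 127 and 102 CPM in *Rps27-FLAG* IP RPFs against 141, 158 and 166 CPM in total RPFs. It fell by 0.54 ± 0.12 on the log2 scale in *Rps27-FLAG* (adjusted p = 0.0424, edgeR) and by 0.45 ± 0.089 in *Rps27l-FLAG* (adjusted p = 0.0362). *Kdm5a*, a histone demethylase that acts with CLOCK:BMAL1, fell by 0.43 ± 0.075 and 0.38 ± 0.076 (adjusted p = 0.0163 and 0.0358). *Ncor1*, a corepressor used by REV-ERB proteins, fell by 0.36 ± 0.067 in *Rps27-FLAG* and by 0.39 ± 0.068 in *Rps27l-FLAG* (adjusted p = 0.0213 and 0.0235). None of these 3 genes overlapped between IP and total RPFs in either line, as was so for 28.3% (*Rps27-FLAG*) and 23.2% (*Rps27l-FLAG*) of all tested transcripts.

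The 4 calls in *Rps27-FLAG* were lost without its replicate 2 or 3 (0 of 41 called), and without replicate 1 there were 12. Of all 10085 tested transcripts, 572 were called with all clones, 0 without replicate 2 or 3 and 1809 without replicate 1. In *Rps27l-FLAG* the calls were lost without replicate 1 or 2 and kept without replicate 3. There, 313 of all transcripts were called with all clones, 0 without replicate 1 or 2 and 318 without replicate 3. The changes were thus shared by all transcripts. With the clone as a block, 14 of 41 were called lower and 5 higher in *Rps27-FLAG* (22.9% and 18.3% of all tested transcripts), and 13 lower and 7 higher in *Rps27l-FLAG* (19% and 12%). When the trend with length was removed as well, the balance turned, to 6 lower and 10 higher in *Rps27-FLAG* (13% and 18.1% of all) and to 5 lower and 10 higher in *Rps27l-FLAG* (7.84% and 14.3%). *Ep300*, a histone acetyltransferase, went from lower to higher in both lines, and its paralog *Crebbp* did so in *Rps27l-FLAG*. *Kdm5a* and *Timeless* were still called lower in both lines, while *Ncor1* was not called. Between the lines, 0 of 41 had a different ratio of IP over total RPFs (4 at an unadjusted p under 0.05, and 0 by DESeq2 and by voom), where 0.0992% of all tested transcripts were called lower and 0.466% higher, so that nothing is read from this count.

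The replicate number marks the pool in which libraries were made. Its effect on total RPFs, with the line in the fit, was not a contrast used to choose the clock genes. Its p-values still rest on the same total libraries as the levels that chose them, and are given as a description. Among all tested transcripts 12.3% differed between the 3 numbers (edgeR, adjusted p under 0.05), and so did 1 of 8 clock genes and 4 of 41 further genes. These counts lay near the share of all transcripts, so that nothing is read from them. *Csnk1e* was at 72.1, 69.5 and 75.1 CPM in replicate 1 of WT, *Rps27-FLAG* and *Rps27l-FLAG*, at 50.0, 47.8 and 62.7 CPM in replicate 2 and at 53.2, 44.9 and 68.8 CPM in replicate 3 (adjusted p = 0.0108). All 3 libraries of replicate 1 were above the 6 others. The call was lost without the *Rps27-FLAG* line (adjusted p = 0.169, edgeR) or without the WT line (adjusted p = 0.149). In these fits 141 and 258 of all 10085 transcripts were called, against 1239 with all lines.

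*Per1* ran the other way and was not called, at 19.6 ± 2.23 CPM in replicate 1, 25.7 ± 2.50 in replicate 2 and 26.8 ± 4.27 in replicate 3 (SD over 3 lines, adjusted p = 0.0656, edgeR). It was called without a filter on low counts (adjusted p = 0.0152, edgeR) and without the *Rps27l-FLAG* line (adjusted p = 0.00330). In these fits 2217 of 17831 and 2106 of 10085 transcripts were called. *Cry1* was at 64.0 ± 8.18, 54.6 ± 6.40 and 54.0 ± 4.42 CPM (adjusted p = 0.125). The further genes called were *Noct* (322 ± 48.5, 204 ± 50.4 and 209 ± 45.6 CPM, adjusted p = 0.000931, edgeR), *Sirt1* (adjusted p = 0.00144), *Usp7* (adjusted p = 0.0141) and *Skp1a* (adjusted p = 0.0186). *Noct* and *Sirt1* were higher in replicate 1 of each line, and *Usp7*, a deubiquitinase of CRY proteins, and *Skp1a*, a subunit of ubiquitin ligases, were lower there. Each number also stands for a different clone of each line.

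**Figure D5:**
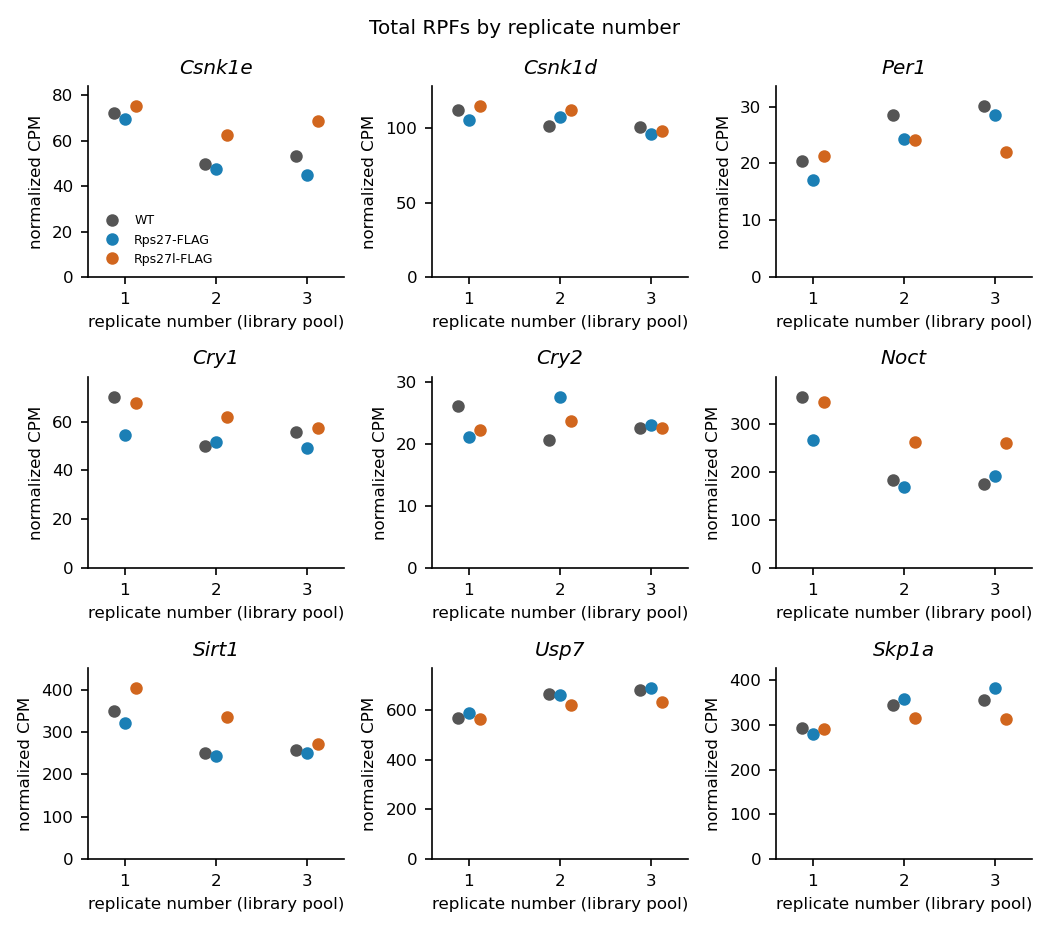
Normalized CPM in total RPFs (y axis, from 0) by replicate number (x axis) for 5 clock genes and the 4 further genes called, 1 point per library, coloured by line. *Csnk1e*, *Noct* and *Sirt1* are higher in replicate 1 of each line, while *Per1*, *Usp7* and *Skp1a* are lower there.

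The transcripts most like *Cry1* over the 15 libraries, by Pearson's r of log2 normalized CPM over all tested transcripts, were *Arid1a* (0.88), *Arl8a* (0.87), *4931406P16Rik* (0.86), *Ptpn9* (0.86) and *Mettl13* (0.86). Of the clock genes, *Csnk1e* (0.66) and *Csnk1d* (0.65) were closest, *Cry2* was at 0.39 and *Clock* at 0.37, and *Per1* at -0.38 was the farthest below 0. These are descriptions over 15 libraries that share clones and pools, and replicate 1 is the highest of each condition for *Cry1*.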

How the data were processed

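RPFs were measured in 9 total and 6 IP libraries. The authors trimmed reads with cutadapt 2.4, removed duplicates with UMI-tools 1.0.1 and aligned with Bowtie2 2.3.4.3 to transcripts of GRCm38 (mm10), keeping unique alignments. The deposited values are raw counts of A sites per transcript without the first 15 and last 5 codons, and the number of sample columns not used was 0. Groups came from the sample labels. Names, positions and lengths came from GENCODE M21 (4 of 21727 transcripts had no entry), while the study's transcripts came from another release.

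Counts were tested in R 4.3.3 with edgeR 4.0.16 (quasi-likelihood F-test, TMM within IP and within total RPFs, Benjamini-Hochberg adjustment, threshold 0.05), after 13 mitochondrially encoded transcripts and those without CPM over 2 in at least 14 libraries were left out. *Tmod3* was left out of the comparison of IP over total between lines, as in the study's methods. Total RPFs were fitted with the line, IP against total with the fraction, and the comparison between lines with the clone as a block. Tests were tried on simulated data. Libraries held 3972152 to 8064166 counts, so that a gene at 10 counts is known poorly, and clones are the replicates. Replicate libraries of a condition differed by 1.78 to 10.3 in chi-square per degree of freedom. Pairing was taken from the labels and protocol. Deviations from the group means correlated between both libraries of a tagged clone with r of 0.468 to 0.790 (6 pairs), and between total libraries with the same number with a median r of 0.443 (-0.164 to 0.713, 9 pairs).

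The clock genes, the further list and the tests were chosen with earlier results of these data known. Genes named are all 9 clock genes, set members of the further list, up to 3 genes called in each direction per comparison whose groups do not overlap and have the largest changes, and the 5 transcripts most like *Cry1*. The 4 further genes called between replicate numbers, *Kdm5a* in *Rps27l-FLAG* IP, *Rorb*, *Ep300* and *Crebbp* were named after their values were seen. Some genes that the rule names are not reported here. Alternatives were limma 3.58.1 with voom, DESeq2 1.42.0, DESeq2's size factors, TMM over all libraries, other filters, blocks or none, the length trend removed by loess (span 0.5), 1 count in place of 0.5, CPM without TMM, and each clone or line left out. Sequences and figures were made with Python 3.11.15 and matplotlib 3.10.9.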

Additional observations from a re-analysis of the deposited data

Results flagged for a closer look

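The ratio of IP over total RPFs of *Cry1* had a log2 fold change of -0.32 in *Rps27l-FLAG* against *Rps27-FLAG*, past the threshold of the comparison between lines. The gene was selected on this value, which is thus a description. The call was lost without any 1 of the 6 clones (adjusted p from 0.0580 to 0.218, edgeR), without a filter and without the clone as a block, and DESeq2 gave no adjusted p. Without the clone as a block, 0 of all 10084 transcripts were called.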

How the results depend on the processing

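Of 717 alternative values of fold changes, ratios and levels, 713 moved by less than the spread between clones and 4 by more. The sign turned in 31 of 672 fold changes of the clock genes, none of them called. The 4 were, with the clone as a block and the trend with length removed, *Cry1* at 0.17 and *Per1* at 0.12 (from -0.15) in *Rps27-FLAG* IP and *Cry1* at -0.15 in *Rps27l-FLAG* IP, and *Clock* at -0.99 in the comparison of ratios between lines without *Rps27l-FLAG* replicate 1. Of 124 alternative counts of calls, 93 stayed within 1.5 times. With the replicate number as a block, the count of further genes called in total RPFs was 2 in place of 0. With the clone as a replicate block, 3 clock genes and 19 further genes were called in *Rps27-FLAG* IP, and 3 and 20 in *Rps27l-FLAG* IP. With the trend with length removed as well, these counts were 2 and 16, and 2 and 15. Of all tested transcripts, 41.2% and 31% were called in *Rps27-FLAG* and *Rps27l-FLAG* IP with the clone as a block. With the trend removed as well, 31.1% and 22.2% were. Without 1 clone, the further genes called ranged from 0 to 12 in *Rps27-FLAG* IP and from 0 to 4 in *Rps27l-FLAG* IP, with 5 to 17 and 6 to 12 at an unadjusted p under 0.05 (edgeR). Calls among all 10085 transcripts ranged from 0 to 1809 and from 0 to 318 in these fits. In the ratios between lines, the count of clock genes called was 0 in place of 1 with DESeq2 (1 at an unadjusted p under 0.05), without a filter (2), with no replicate block (1), and without any 1 clone (from 0 to 0 called, 1 to 2 at an unadjusted p under 0.05). Calls among all transcripts went from 57 to 11, 48, 0 and 46 to 64 in these settings. Between replicate numbers, the counts of clock genes and further genes called were 2 and 8 without a filter, 0 and 2 without the *Rps27-FLAG* line, 2 and 9 without the *Rps27l-FLAG* line, and 0 and 2 without the WT line, where 2 and 1 clock genes had an unadjusted p under 0.05 without *Rps27-FLAG* and without WT. Of all transcripts, 2217 of 17831 were called without a filter. Of 10085, 1239 were called with all lines, 141 without *Rps27-FLAG*, 2106 without *Rps27l-FLAG* and 258 without WT. Leaving out a clone or line leaves fewer samples, and for the other settings the cause was not tested. Depth limits *Per2*, *Clock* and *Per3* most, with at most 20, 66 and 68 counts per library.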
